A study of Homo sapiens with 12 samples.

Results

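The FGF-ERK feedback genes described here are DUSP4, DUSP5, DUSP6, SPRY1, SPRY2, SPRY4, SPRED1, SPRED2, ETV4 and ETV5. These 10 genes were chosen by symbol, as a list of genes that FGF-ERK signaling is known to induce, among the 28278 genes of a table of RNA-sequencing read counts. The choice was made with earlier results of these data known. All 10 were in the table, and all 10 passed the filter on low counts together with 15916 genes in all. Of the 12 samples in the labels, 8 libraries were analysed, in 4 groups of 2.

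All libraries came from WA26 cells, a line of human embryonic stem cells (hESCs). The WT group held wild-type cells at normal O2, and the KO group held UBQLN1 knockout cells at normal O2. The other groups were KO cells at 5% O2 and KO cells given N-acetylcysteine (NAC), an antioxidant and precursor of glutathione. UBQLN1 encodes ubiquilin 1, a shuttle that brings ubiquitinated proteins to the proteasome. According to the study's methods, the knockout was made with Cas9 and a pair of guide RNAs, clones were picked, and all cells grew in E8 medium on Matrigel. The labels do not say how many clones the libraries represent, so genotype and clone cannot be told apart. The comparison of KO with WT addresses loss of UBQLN1 together with any difference between clones. Those of 5% O2 or NAC with KO address what each treatment does in the knockout. The study used both treatments to lower oxidative damage. Such damage was not measured in these libraries, and whether a change came from its relief or from another effect of a treatment was not tested. The KO libraries at normal O2 served as control for both treatments. The scheme of the study names DMSO as the control for NAC, whereas the labels record no treatment and no vehicle for these libraries. The labels give no length of treatment, and the text and the scheme of the study differ on it for 5% O2, so that NAC and 5% O2 may stand for unlike exposure times. The treatments were analysed in KO cells only, and treated WT cells (4 samples) were not analysed here.

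FGF2 in the medium binds FGF receptors, which act through adaptors, RAS, RAF and MEK to activate the kinase ERK. In hESCs this signaling supports self-renewal. ERK in turn switches on genes whose products limit it, so that their transcripts are widely used as a readout of the pathway. DUSP4, DUSP5 and DUSP6 are phosphatases that remove the activating phosphates from ERK, DUSP6 in the cytoplasm and the other two in the nucleus. Sprouty proteins (SPRY) and the related SPRED proteins act upstream at RAS and RAF, and SPRED proteins recruit neurofibromin, the product of NF1, to the membrane. ETV4 and ETV5 are ETS transcription factors that carry the signal to target genes. CIC is a repressor that occupies octamer sites at several of these genes until ERK signaling removes it.

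A promoter window of DUSP6 is shown because DUSP6 moved apart from most of the list and because this window holds CIC octamers. It spans chr12:89352486-89352585 (GRCh38.p14, RefSeq, minus strand) and is printed 5′ to 3′ along the gene with the octamers in capitals.

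DUSP6 promoter: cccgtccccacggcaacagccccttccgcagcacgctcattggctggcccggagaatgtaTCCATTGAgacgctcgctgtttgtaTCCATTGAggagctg

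The words searched on both strands were TGAATGAA, TGAATGGA, TCAATGAA and TCAATGGA. The window held TCAATGGA 2 times as its reverse complement, with the starts 25 bases apart, the first upstream of the annotated start site and the second just inside exon 1 of the gene. Of 35116 RefSeq promoter windows of 300 bases, 3.77% held at least 1 of these octamers. RefSeq windows were at hand for 6 of the 10 genes (10 windows, for DUSP6, SPRY1, SPRY2, SPRY4, SPRED1 and SPRED2), and among them only the DUSP6 window had a match. An ETS word, CCGGAAGT, was in 4.14% of all windows and in 0 of these 10. An AP-1 word, TGANTCA, was in 7.71% of all windows and in 1 of these 10, a window of SPRED2. These are matches of letters and were not tested as binding sites.

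The libraries held 31236968 to 41639350 counts each, and the 10 genes together took 0.13% to 0.168% of each library. UBQLN1 had 7382 and 7591 counts in the WT libraries and 1559 and 1789 in the KO libraries, a log2 fold change of -2.29 (SE 0.12; adjusted p = 2.52e-06, edgeR quasi-likelihood test). All 8 pluripotency markers were detected in every library. They summed to 6548 and 6607 CPM (counts scaled to a common library size) in WT, 6491 and 6265 in KO, 5979 and 5975 in KO at 5% O2, and 5685 and 5059 in KO with NAC, the lowest group. DNMT3B was the highest marker in every library except NAC replicate 1, where LIN28A was (1878 CPM). The sum therefore leans on DNMT3B and does not show a fall of the markers in general. Against KO, 3 of the 8 markers had positive values with NAC and 5 negative ones, with a median log2 fold change of -0.08. With NAC, DNMT3B (1136 and 1418 CPM, against 2553 and 2455 in KO; log2 fold change -0.97, adjusted p = 2.67e-05) and NANOG (-0.31, adjusted p = 0.0142) were lower and ZFP42 and TDGF1 higher. Neural markers summed to 266 to 303 CPM in WT, 498 to 523 in KO, 291 to 360 in KO at 5% O2 and 153 to 204 in KO with NAC. NES was most of this sum, 6 or 7 of 8 neural markers were detected, NEUROG2 was at 0 throughout and PAX6 had at most 4 counts. Mesendoderm markers summed to 4.05 to 11.4 CPM, with 5 to 7 of 8 detected and SOX17 at 0. Replicate 1 of KO with NAC stood apart: 10 of 10 mesenchymal markers were detected and summed to 947 CPM, against 6 to 8 of 10 and 515 to 630 CPM in the other libraries, where DCN and LUM were at 0. THY1 was the highest mesenchymal marker in every library, at 332 to 476 CPM. The part of these markers in the results below was not tested. In bulk RNA, fewer cells of a type and less RNA per cell cannot be told apart.

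The 10 genes did not move as a block. With NAC, DUSP6, DUSP4 and SPRED1 rose in KO cells, whereas DUSP5, SPRY4, SPRED2, ETV4, ETV5 and SPRY1 fell. The same cells at 5% O2 showed a higher DUSP4 and a lower SPRY4, and SPRY4 was the only one of the 10 called higher in KO than in WT. The changes were moderate, from 22.4% to 38.9% with NAC among those that passed the test. CPM below are scaled by TMM factors. A gene was called changed at an adjusted p under 0.05 (edgeR, quasi-likelihood test, Benjamini-Hochberg over all tested genes).

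**Figure D1:**
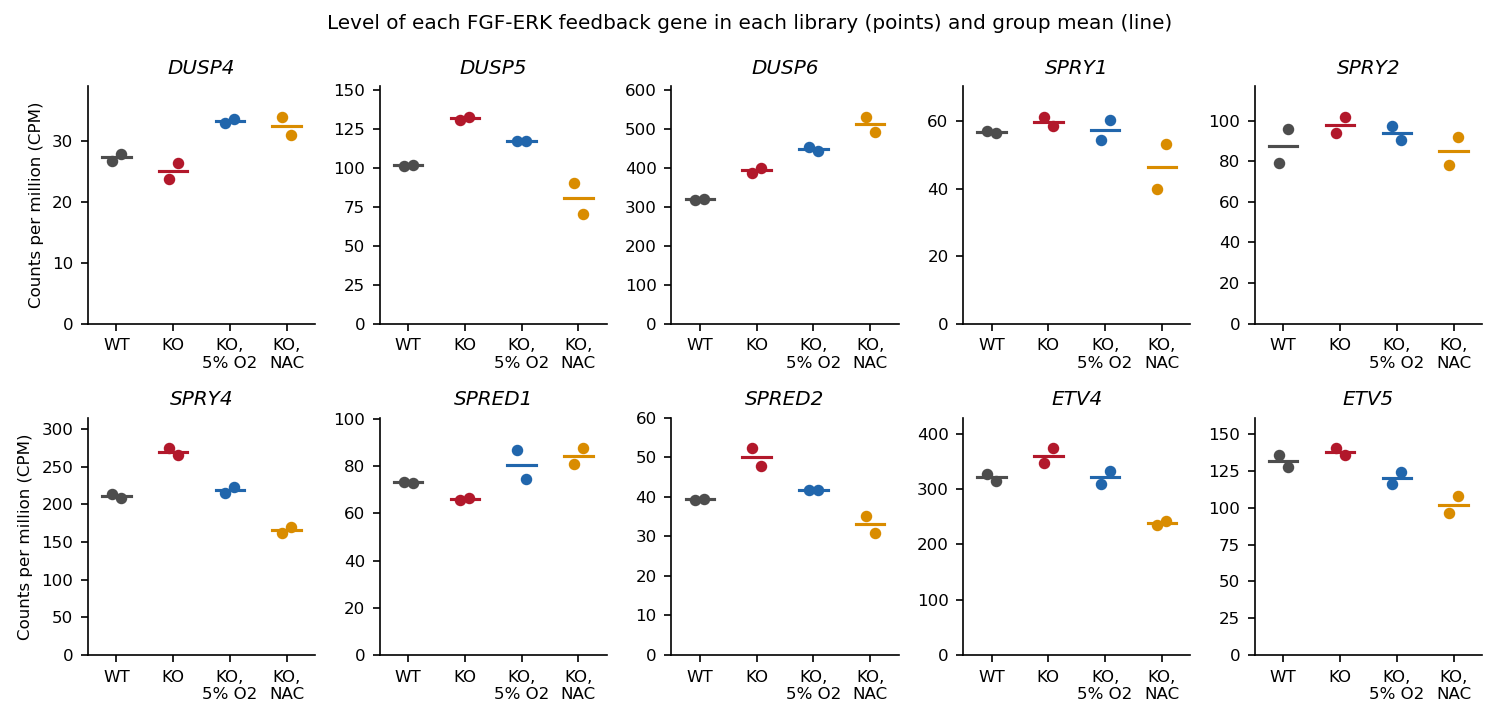
Level of each of the 10 genes in CPM (y axis, from 0), by group (x axis), with a point for each of the 2 libraries and a line at their mean. DUSP6 is lowest in WT (317 and 320 CPM) and highest in KO with NAC (531 and 492 CPM), whereas SPRY4, SPRED2, ETV4 and DUSP5 peak in untreated KO cells and are lowest with NAC.

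DUSP6 (chr12:89347235-89352501, minus strand), the cytoplasmic ERK phosphatase, had 317 and 320 CPM in WT, 388 and 400.2 in KO, 454 and 444 in KO at 5% O2, and 531 and 492 in KO with NAC. The 4 groups did not overlap and lay in that order from low to high. The increase with NAC over KO was 29.8% (log2 fold change 0.38, SE 0.077, adjusted p = 0.00195). Neighboring groups in the order were not separated by the test: the log2 fold change was 0.31 for KO over WT (adjusted p = 0.0697), 0.19 for 5% O2 over KO (adjusted p = 0.157) and 0.19 for NAC over 5% O2 (adjusted p = 0.0891). An antisense noncoding RNA annotated over DUSP6 was not in the table, and its reads could not be told apart from those of DUSP6 without strand.

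DUSP5 (chr10:110497907-110511533, plus strand), a nuclear ERK phosphatase, had 102 and 102 CPM in WT, 131 and 133 in KO, 118 and 117 in KO at 5% O2, and 90.6 and 70.6 in KO with NAC. The untreated KO libraries were the highest and the NAC libraries the lowest of all. DUSP5 fell by 38.9% with NAC (log2 fold change -0.71, SE 0.11, adjusted p = 0.000291) and was lower with NAC than at 5% O2 (log2 fold change -0.54, adjusted p = 0.00418). The NAC replicates differed more for DUSP5 than those of any other group, with a mean of 80.6 ± 14.2 CPM (SD, n = 2). DUSP5 was 29.7% higher in KO than in WT, with no overlap, and did not pass the test (adjusted p = 0.106).

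DUSP4 (chr8:29333064-29350684, minus strand), the other nuclear ERK phosphatase, had 26.7 and 27.9 CPM in WT, 23.8 and 26.4 in KO, 33.0 and 33.6 in KO at 5% O2, and 33.9 and 30.96 in KO with NAC. Both treated groups lay above both untreated groups. DUSP4 was 32.7% higher at 5% O2 than in KO (log2 fold change 0.41, SE 0.11, adjusted p = 0.0432) and 29.4% higher with NAC (0.37, SE 0.11, adjusted p = 0.0153). The treatments overlapped, and the log2 difference of NAC from 5% O2 was -0.04 with a 95% confidence interval of -0.27 to 0.20. The DUSP4 call with NAC was lost without NAC replicate 1 (log2 fold change 0.30, adjusted p = 0.0686) and without KO replicate 1 (0.30, adjusted p = 0.14), and it held in 13 of 16 alternatives.

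SPRY4 (chr5:142310427-142326455, minus strand), a Sprouty gene, followed a course close to that of DUSP5. Its levels were 213 and 208 CPM in WT, 274 and 265.5 in KO, 215 and 222 in KO at 5% O2, and 162 and 170 in KO with NAC. KO at 5% O2 was just above WT, and NAC was below WT in both libraries. SPRY4 was 28.2% higher in KO than in WT (log2 fold change 0.36, SE 0.078, adjusted p = 0.0396). It fell by 19.0% at 5% O2 (log2 fold change -0.30, adjusted p = 0.0383) and by 38.4% with NAC (-0.70, SE 0.079, adjusted p = 3.99e-05). NAC libraries were also lower than those at 5% O2 (log2 fold change -0.40, adjusted p = 0.00366). With a trend on transcript length and GC content removed, as described below, the fall with NAC was still called at -0.32 (adjusted p = 0.00572), whereas the log2 fold change was 0.27 for KO over WT (adjusted p = 0.0914), -0.13 at 5% O2 (adjusted p = 0.357) and -0.19 for NAC against 5% O2 (adjusted p = 0.0759). SPRY4-AS1, an antisense RNA over SPRY4, was not in the table.

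SPRY1 and SPRY2 changed less. SPRY1 (chr4:123396795-123403760, plus strand) had 57.2 and 56.5 CPM in WT, 61.2 and 58.4 in KO, 54.5 and 60.3 in KO at 5% O2, and 39.9 and 53.1 in KO with NAC. SPRY1 fell by 22.4% with NAC (log2 fold change -0.37, SE 0.13, adjusted p = 0.0332), mostly through replicate 1. Without that library the log2 fold change was -0.18 and the call was lost (adjusted p = 0.226). It was also lost without WT replicate 1, either KO library or either 5% O2 library, and held in 9 of 16 alternatives. SPRY2 (chr13:80335976-80341126, minus strand) had 79.3 and 96.0 CPM in WT, 93.9 and 102 in KO, 97.7 and 90.3 in KO at 5% O2, and 78.4 and 92.3 in KO with NAC. SPRY2 was the only one of the 10 genes with no call in any of the 4 comparisons. Its difference of NAC from KO was -0.20 on the log2 scale, with a 95% confidence interval of -0.45 to 0.05 (adjusted p = 0.19), so that a fall as large as that of SPRY1 was not excluded.

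The SPRED genes split with NAC. SPRED1 (chr15:38252836-38357249, plus strand) had 73.2 and 73.0 CPM in WT, 65.7 and 66.3 in KO, 86.9 and 74.5 in KO at 5% O2, and 81.0 and 87.5 in KO with NAC. SPRED1 was lowest in untreated KO cells, and it rose by 27.5% with NAC (log2 fold change 0.35, SE 0.099, adjusted p = 0.0123). This call held in 13 of 16 alternatives. It was lost without either KO library (log2 fold changes 0.34 and 0.35), and with the length and GC trend removed no rise was left to call (0.04, adjusted p = 0.757). At 5% O2 it was 22.2% higher without passing the test (adjusted p = 0.0926). SPRED2 (chr2:65310851-65432637, minus strand) had 39.2 and 39.5 CPM in WT, 52.2 and 47.8 in KO, 41.6 and 41.8 in KO at 5% O2, and 35.2 and 30.9 in KO with NAC. SPRED2 was thus highest where SPRED1 was lowest. It fell by 33.8% with NAC (log2 fold change -0.60, SE 0.10, adjusted p = 0.000617) and was lower than at 5% O2 (-0.33, adjusted p = 0.0306), the latter a call lost without any of the KO and 5% O2 libraries or NAC replicate 2 (adjusted p = 0.0544 to 0.147). In KO over WT it was 27.1% higher without passing the test (adjusted p = 0.111).

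Both ETS factors fell with NAC. ETV4 (chr17:43527844-43579620, minus strand) had 328 and 315 CPM in WT, 347 and 374 in KO, 309 and 333 in KO at 5% O2, and 236 and 242 in KO with NAC. The NAC libraries lay well below the other 6, which were close together. With NAC, ETV4 fell by 33.7% against KO (log2 fold change -0.59, SE 0.082, adjusted p = 0.000143). Against 5% O2 the log2 fold change was -0.43 (adjusted p = 0.00314; 0.0508 without 5% O2 replicate 2). ETV5 (chr3:186046314-186110318, minus strand) had 136 and 128 CPM in WT, 140.2 and 136 in KO, 116 and 124 in KO at 5% O2, and 96.2 and 108 in KO with NAC. Its fall with NAC was 26.1% (log2 fold change -0.44, SE 0.091, adjusted p = 0.00221), and the step from 5% O2 to NAC did not pass the test (-0.24, adjusted p = 0.0737). ETV4 overlaps DHX8 on the opposite strand and ETV5 overlaps DGKG on the same strand, and reads in the overlaps could be lost or, for ETV4, not assigned by strand.

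In KO against WT, 1 of the 10 genes was higher and 0 were lower, where 1.34% of all tested genes were higher and 0.622% lower. The median log2 fold change of the 10 genes was 0.16, against 0.00 for all tested genes, and 8 of 10 values were positive. DUSP5, SPRY4, SPRED2 and DUSP6 lay between 0.31 and 0.38, and SPRY1, SPRY2, ETV4 and ETV5 between 0.07 and 0.17. DUSP4 (-0.12) and SPRED1 (-0.15) were the negative values. The SPRY4 call was lost without any of the WT, KO or 5% O2 libraries (adjusted p = 0.0782 to 0.372) and was kept without either NAC library. DESeq2 called DUSP5 (adjusted p = 0.027) and DUSP6 (adjusted p = 0.00772) besides SPRY4.

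In KO with NAC against KO, 3 of the 10 genes were higher and 6 lower, where 23.8% of all tested genes were higher and 20.8% lower. Calls were thus common among all genes in this comparison. The 10 genes had a median log2 fold change of -0.40, and all tested genes one of 0.02. The calls of DUSP5, DUSP6, SPRY4, SPRED2, ETV4 and ETV5 held in all 16 alternatives that gave them a value. Without NAC replicate 1, the library with mesenchymal markers, 2 genes were higher (DUSP6 and SPRED1) and 5 lower (DUSP5, SPRY4, SPRED2, ETV4 and ETV5), with 21.2% and 19.7% of all tested genes. Changes over all genes followed transcript GC content (Spearman rho -0.499, 14836 genes) and length (rho -0.257), and SPRED1 has the longest transcript (7270 bases) and the lowest GC content (36.3%) of the 10. With a smooth trend on both removed, 2 genes were higher and 7 lower, against 14.9% and 10.3% of all tested genes. SPRED1 then lost its call, SPRY2 gained one (-0.38, adjusted p = 0.0314) and DUSP4 rose to 0.77 (adjusted p = 0.000521), while DUSP6 was at 0.34 (adjusted p = 0.00411). The falls of SPRED2 (-0.31, adjusted p = 0.0308) and ETV4 (-0.27, adjusted p = 0.0197) were smaller with the trend removed, and that of SPRY1 was larger (-0.65, adjusted p = 0.00593).

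At 5% O2 against normal O2 in KO, DUSP4 was higher and SPRY4 lower. These are 1 of 10 in each direction, where 3.68% of all tested genes were higher and 4.13% lower. The median log2 fold change was -0.11, against 0.00 for all tested genes. The remaining 8 genes did not pass the test: SPRED1 (0.29) and DUSP6 (0.19) had positive values, and SPRED2 (-0.26), ETV5 (-0.20), DUSP5 (-0.17), ETV4 (-0.17), SPRY1 (-0.06) and SPRY2 (-0.06) negative ones. The DUSP4 and SPRY4 calls were lost when any WT, KO or 5% O2 library was left out, and with the trend removed SPRY4 lost its call. The comparisons of 5% O2 and of NAC share the untreated KO libraries, and so does the comparison of KO with WT.

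Between the treatments, 4 of the 10 genes, DUSP5, ETV4, SPRY4 and SPRED2, were lower with NAC than at 5% O2, and 0 were higher. Of all tested genes, 13.6% were lower and 15.5% higher. The median log2 fold change was -0.27, against 0.04 for all tested genes. With the trend removed, DUSP5, ETV4 and SPRY1 (-0.48, adjusted p = 0.0363) were lower, whereas SPRY4 and SPRED2 (adjusted p = 0.206) fell short. Of all tested genes, 7.84% were then lower and 7.56% higher. By the study's own criteria, an absolute log2 fold change over 1 with an unadjusted p under 0.05, 0 of the 10 genes were called in any comparison. The shares of all tested genes called higher and lower by those criteria were 1.11% and 1.46% in KO against WT, 3.63% and 5.39% with NAC, 0.811% and 1.21% at 5% O2, and 1.95% and 2.46% for NAC against 5% O2.

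**Figure D2:**
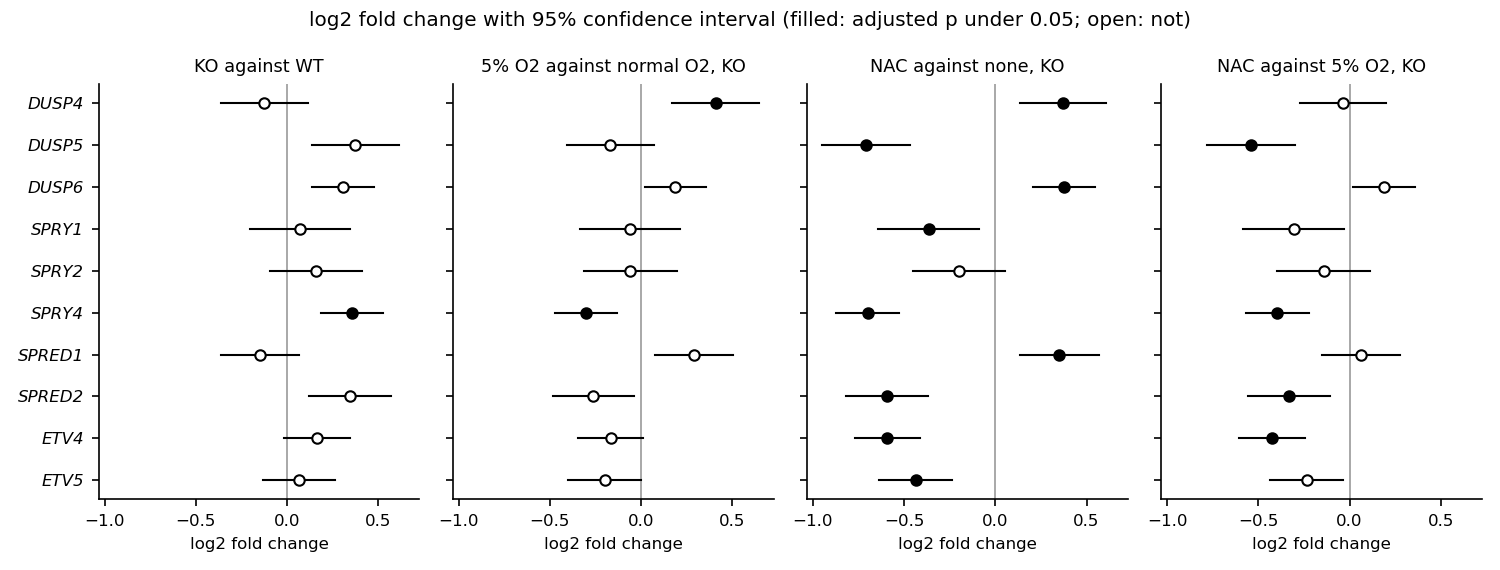
log2 fold change (x axis) with its 95% confidence interval for each of the 10 genes (y axis) in 4 comparisons, filled where the adjusted p was under 0.05. With NAC against untreated KO cells, 3 genes lie to the right of 0 and 6 to the left with filled points, from 0.38 for DUSP6 to -0.71 for DUSP5.

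Because some genes rose while others fell, the summed level of the 10 genes hid much of the change. The sum was 1371 and 1366 CPM in WT, 1577 and 1609 in KO, 1525 and 1541 in KO at 5% O2, and 1384 and 1378 in KO with NAC. The NAC sums were close to the WT sums, while the makeup differed. DUSP6 held 23.3% ± 0.21 (SD, n = 2) of the counts of the 10 genes in WT, 24.7% ± 0.199 in KO, 29.3% ± 0.704 at 5% O2 and 37.0% ± 1.85 with NAC. ETV4 went from 23.5% ± 0.605 in WT and 22.6% ± 0.855 in KO to 21.0% ± 0.967 at 5% O2 and 17.3% ± 0.382 with NAC. SPRY4 held 15.4%, 16.9%, 14.3% and 12.02% in the same order. All shares were taken from counts that still carried the length and GC trend, and its part in them was not tested. With 2 libraries against 2, an exact permutation test of a single share could not give a p below 0.333, so none was run.

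**Figure D3:**
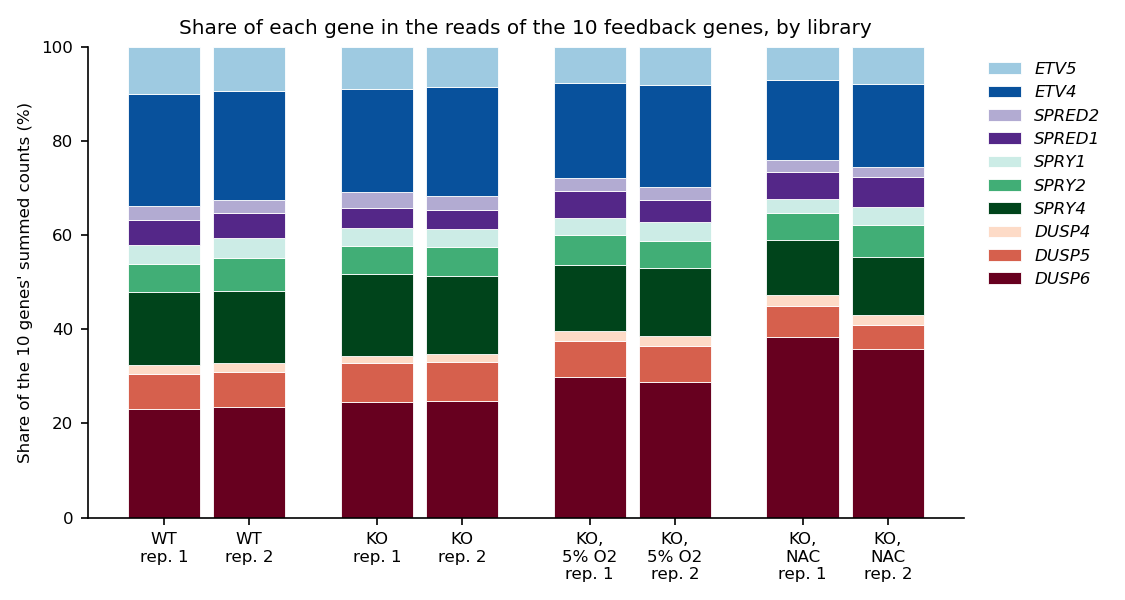
Share of each gene in the summed counts of the 10 genes (y axis, %), stacked to 100 for each of the 8 libraries (x axis). The DUSP6 share grows from 23.3% in WT to 37.0% with NAC (means of 2 libraries), and those of ETV4 and SPRY4 shrink.

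Per kilobase of transcript (FPKM, over the canonical transcript), ETV4 was first and DUSP6 second in WT, in KO and at 5% O2, and with NAC the order was reversed. The level of ETV4 was 138 ± 3.92 FPKM (SD, n = 2) in WT and 102 ± 1.92 with NAC, and that of DUSP6 was 87.9 ± 0.551 in WT and 141 ± 7.51 with NAC. The per-length ratio of DUSP6 to ETV4 was 0.623 and 0.654 in the WT libraries, 0.719 and 0.690 in KO, 0.946 and 0.856 at 5% O2, and 1.45 and 1.31 with NAC. The ratio of DUSP6 to SPRY4 was 2.02 and 2.08 in WT, 1.92 and 2.04 in KO, 2.86 and 2.70 at 5% O2, and 4.42 and 3.92 with NAC. Both ratios separated the treated from the untreated libraries without overlap. They pair DUSP6, which rose with NAC, with genes that fell with NAC. Such a separation therefore adds no support to the changes of the single genes. How often other pairs of genes separate in this way was not counted. The FPKM and ratios still carried the length and GC trend, and ETV4 has a higher GC content (60.6%) than DUSP6 (46.5%). After its removal, the log2 fold change of NAC against KO was 0.34 for DUSP6, -0.27 for ETV4 and -0.32 for SPRY4. As tested, these values were 0.38, -0.59 and -0.70. The ratios were not recomputed in that way, so the part of the trend in their separation was not tested. DUSP4 was the lowest of the 10 in every group, at 4.52 to 5.998 FPKM on average.

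Genes whose course over the 8 libraries was most like that of DUSP6 were looked for outside the list, so none of them could be a member. The candidates were 12363 tested genes other than the members, with an average log2 CPM of at least 1. Among them, the smallest root mean square differences in centred log2 CPM were those of NME4 (0.0758), USP3 (0.0768), ZDHHC4 (0.0772), HNRNPDL (0.0777) and CLBA1 (0.0803). DUSP4 was the nearest member, at 0.183 and rank 1179, followed by SPRED1 at 0.205 and rank 2016. DUSP5 was the farthest, at 0.44. These distances describe 8 libraries, whose depth and base composition all genes share.

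Other genes of the pathway were taken from 7 lists of 82 genes, of which 74 were tested. With NAC, 28 (37.8%) were lower and 2 (2.7%) higher, with a median log2 fold change of -0.33, where 20.8% and 23.8% of all tested genes were lower and higher. With the length and GC trend removed, 18 were lower and 4 higher, and the median was nearer to 0 (-0.16). Without NAC replicate 1, 26 were lower and 3 higher. In KO against WT, 1 of 74 was higher and 0 lower (7 and 1 without NAC replicate 1, where 5.03% and 2.95% of all tested genes were higher and lower). With all 8 libraries, 1.34% of all tested genes were higher and 0.622% lower in KO against WT, against 1.35% and 0% of the 74. At 5% O2, 3 (4.05%) were higher and 5 (6.76%) lower, where 3.68% and 4.13% of all tested genes were. With the trend removed these were 3 and 0, where 1.81% and 0.339% of all tested genes were higher and lower, and without NAC replicate 1 they were 3 and 11, where 8.04% and 8.79% were.

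Among the ligands, 0 of 16 were higher and 4 lower with NAC, and most of these are weakly expressed. FGF2, the ligand that also sits in the medium, had 47.4 and 48.8 CPM in WT, 42.1 and 41.9 in KO, 42.4 and 38.1 at 5% O2, and 36.3 and 38.9 with NAC, and it passed the test in no comparison (log2 fold change with NAC -0.16, adjusted p = 0.218). FGF8 had 27 and 24 counts with NAC and 66 and 79 in KO, and FGF17 had 9 and 12 against 41 and 88. FGF22 had 2 counts in each NAC library and 18 in each KO library. FGF19, the other called ligand, had 42.5 and 52.2 CPM with NAC and 60.8 and 59.4 in KO. Without NAC replicate 1 the calls of FGF8 (adjusted p = 0.0663), FGF22 (adjusted p = 0.0756) and FGF19 (adjusted p = 0.157) were lost and that of FGF17 was kept (adjusted p = 0.0154). At 5% O2 the called ligand was FGF11, a member of the intracellular FGFs, with 36.6 and 40.2 CPM against 14.9 and 17.0 in KO (log2 fold change 1.27, adjusted p = 0.000333). In the NAC libraries, a separate group of KO cells, FGF11 had 13.6 and 13.0 CPM.

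Among the receptors and coreceptors, 2 of 6 were lower and 0 higher with NAC, FGFRL1, a receptor without a kinase domain (log2 fold change -0.63, adjusted p = 0.000515), and FGFR1. FGFR1, the FGF receptor gene with the highest FPKM here, had 449 and 468 CPM in WT, 533 and 507 in KO, 406 and 439 at 5% O2, and 390.3 and 392 with NAC. It was lower both with NAC (log2 fold change -0.41, adjusted p = 0.00124) and at 5% O2 (-0.30, adjusted p = 0.0411). These receptor calls depended on the trend. With it removed, FGFR1 was at 0.18 with NAC (adjusted p = 0.0679) and FGFRL1 at 0.00, the median of the list turned from -0.23 to 0.20, and 2 receptors, FGFR3 (0.52, adjusted p = 0.00554) and FGFR4 (0.56, adjusted p = 0.000822), named here after their values were seen, were higher.

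Between receptor and ERK, 4 of 8 adaptor genes were lower with NAC and 0 higher, among them SHC1 (log2 fold change -0.55, adjusted p = 0.000175), PTPN11, which encodes the phosphatase SHP2 (-0.45, adjusted p = 0.00232), and GAB1 (-0.40, adjusted p = 0.0241). In the RAS-RAF-MEK-ERK cascade, 4 of 12 were lower and 2 higher. NRAS, a RAS GTPase, rose from 136 and 133 CPM in KO to 241 and 234 with NAC (log2 fold change 0.82, adjusted p = 3.67e-05) and to 209 and 181 at 5% O2 (0.54, adjusted p = 0.0093). KSR1, the scaffold that brings RAF, MEK and ERK together, fell from 47.8 and 48.3 CPM to 21.1 and 20.0 with NAC (-1.22, adjusted p = 1.77e-05), and MAP2K2, which encodes MEK2, from 209.6 and 247 to 134 and 133 (-0.78, adjusted p = 0.000153). MAPK3, which encodes ERK1, had a log2 fold change of -0.29 with NAC (adjusted p = 0.0492), a call lost without NAC replicate 1 (adjusted p = 0.213). With the trend removed, NRAS (0.34, adjusted p = 0.00525), KSR1 (-0.57, adjusted p = 0.002) and MAP2K2 (-0.42, adjusted p = 0.00308) were still called, as were PTPN11 (-0.49, adjusted p = 0.00158) and GAB1 (-0.57, adjusted p = 0.00679). The calls of SHC1 (-0.17, adjusted p = 0.0725), ARAF (-0.16, adjusted p = 0.264) and MAPK3 (-0.06, adjusted p = 0.696) were lost, and so was that of SHOC2, the other gene of the cascade that was higher (0.07, adjusted p = 0.721).

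The other inhibitors of the pathway had 7 of 14 genes lower with NAC and 0 higher, with 14 of 14 values negative and a median of -0.43. Of all tested genes, 20.8% were lower and 23.8% higher, with a median of 0.02, and their share of negative values was not counted. CBL, a ubiquitin ligase for activated receptors, fell from 143 and 125 CPM in KO to 54.9 and 52.2 (log2 fold change -1.32, adjusted p = 1.28e-05). NF1, the RAS inactivator that SPRED proteins recruit, fell from 68.5 and 53.4 CPM to 34.8 and 31.7 (-0.87, adjusted p = 0.000171), and the phosphatase gene DUSP7, a close relative of DUSP6, from 29.5 and 35.8 to 18.8 and 17.0 (-0.86, adjusted p = 0.000184). These genes went the way of DUSP5, SPRY4 and SPRED2 and not that of DUSP6. With the trend removed, 5 were lower, CBL (-0.89, adjusted p = 0.000135), NF1 (-0.62, adjusted p = 0.00169) and DUSP7 (-0.41, adjusted p = 0.0263) among them. Without NAC replicate 1, some of the 14 values were positive, up to 0.28. CBL (-1.36), NF1 (-0.95) and DUSP7 (-0.94) stayed negative without it.

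Of 12 other genes that ERK induces, 3 were lower with NAC and 0 higher: CCND1, IER2 and MYC. CCND1, which encodes cyclin D1, had 316 and 289.7 CPM in WT, 443 and 437 in KO, 393 and 425 at 5% O2, and 254 and 263 with NAC. It was the called gene of these lists in KO against WT (log2 fold change 0.54, SE 0.083, adjusted p = 0.00713), and it fell with NAC (-0.77, SE 0.083, adjusted p = 3.44e-05), as SPRY4 was higher in KO and fell with NAC. IER2 (log2 fold change -0.61, adjusted p = 0.000754) and MYC (-0.31, adjusted p = 0.0155) were lower with NAC. Neither was called with the trend removed (adjusted p = 0.0561 and 0.0679), while CCND1 was (-0.54, adjusted p = 0.000644). In that setting 1 other gene of the 12 was called higher, and the median of the list was -0.14, against -0.25 as tested. PHLDA1 was higher at 5% O2 (0.58, adjusted p = 0.0245).

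Of the 6 repressors at ERK target promoters, 4 were lower with NAC and 0 higher, with a median log2 fold change of -0.69. CIC had 61.9 and 59.7 CPM in WT, 85.9 and 80.8 in KO, 50.7 and 59.8 at 5% O2, and 31.5 and 45.9 with NAC. It was lower with NAC (log2 fold change -1.11, SE 0.15, adjusted p = 0.000134) and at 5% O2 (-0.59, SE 0.15, adjusted p = 0.0362). ETV6 (-0.81, adjusted p = 0.000269) and ERF (-0.70, adjusted p = 0.000872), ETS repressors, were lower with NAC as well. Both CIC calls were lost with the trend removed: CIC was then at -0.03 with NAC (adjusted p = 0.891) and at -0.09 at 5% O2 (adjusted p = 0.762), and 1 of the 6, ETV6, was lower with NAC (-0.52, adjusted p = 0.00903). Protein, phosphorylated ERK and CIC binding were not measured in these files.

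**Figure D4:**
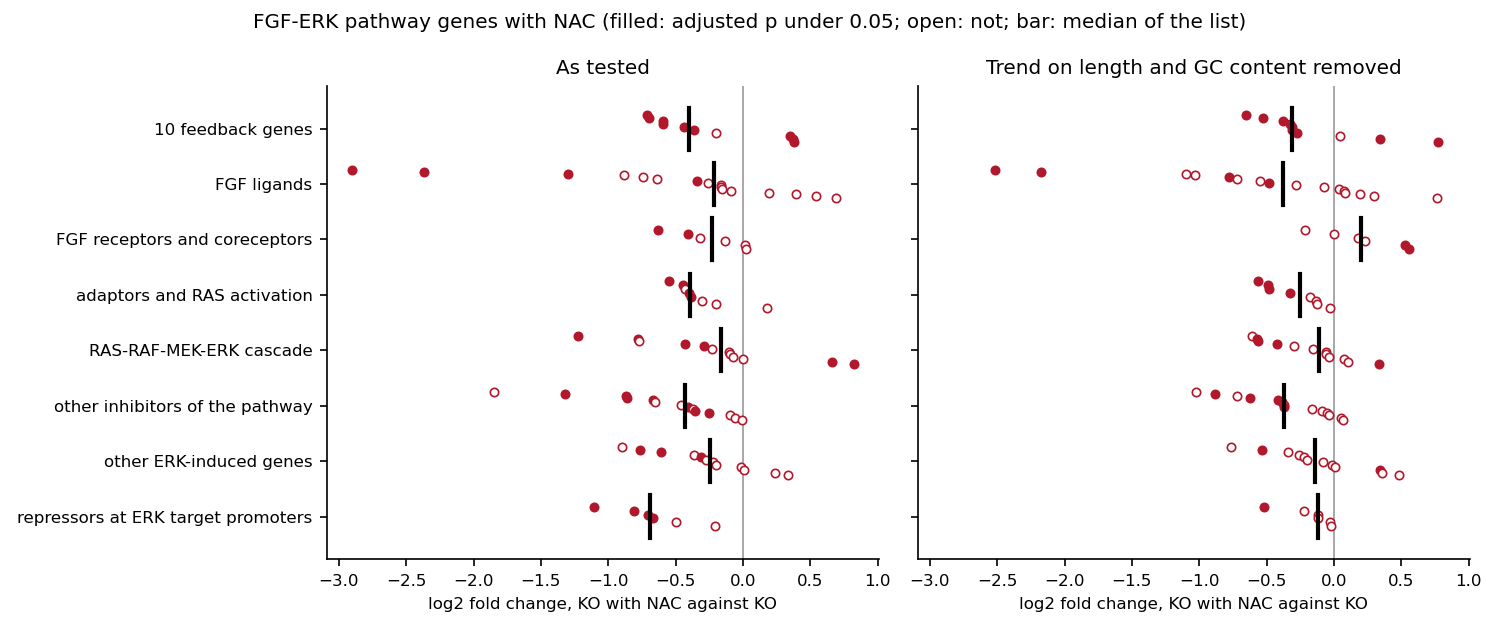
log2 fold change of KO with NAC against KO (x axis) for each tested gene of the 10 feedback genes and 7 pathway lists (y axis), as tested on the left and with the length and GC trend removed on the right; points are filled where the adjusted p was under 0.05, and bars are list medians. The median of the 10 genes is -0.40 on the left and -0.31 on the right, that of the repressors moves from -0.69 to -0.12, and that of the receptors changes sign.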

How the data were processed

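RNA of WA26 hESCs was measured by RNA sequencing. According to the paper's methods and the labels, the authors used trim-galore for trimming, hisat2 for alignment to hg38 and featureCounts, at its defaults, for counting; the annotation is not given in the sources used here. The deposited table holds raw gene counts. Such counting ignores strand and drops reads with more than a single match or gene.

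From the counts, genes were filtered with filterByExpr (minimum count 10), scaled by TMM and tested with edgeR 4.0.16 (R 4.3.3; quasi-likelihood, one term per group, 8 libraries, 4 residual degrees of freedom), with Benjamini-Hochberg adjustment over 15916 genes. SE is the absolute log2 fold change over the square root of F. The biological coefficient of variation was 13.7%. CPM uses TMM-scaled totals, and FPKM also the length of the canonical GENCODE v44 transcript, the source of the coordinates (hg38). The fit was tested on simulated data for NAC against KO. Without a simulated trend on GC content it called few unchanged genes. With such a trend it called many unchanged genes, and few once the trend was removed. The simulation held no trend on length and no changed genes picked by GC content or length. It therefore cannot show whether the removal suits the measured counts. The labels do not say whether replicates were separate cultures, so p-values measure only the spread between these libraries. Same-numbered replicates did not deviate together (correlations of -0.0226 to 0.0816).

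The 10 genes and the pathway and marker lists were chosen with earlier results of these data known. From the pathway lists, genes were named where called, the 3 with the largest changes per list and comparison, and FGF2, FGFR1, MAPK3 and CIC always; a further gene of this rule is not reported here. Alternatives were DESeq2 1.42.0, RLE and upper quartile scaling, 2 other filters, a replicate block, only the libraries compared, removal, library by library, of a smooth trend with length and GC content of the transcript (mgcv 1.9.3; 93.2% of tested genes had both), the study's criteria, and leaving out each library.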

Additional observations from a re-analysis of the deposited data

How the results depend on the processing

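With 2 libraries per group, the spread limited which changes could be called. The share of all tested genes called also moved with the setting. In KO against WT, 1.34% were higher and 0.622% lower as tested, and 0.591% and 0.609% with the trend removed. The counts of the 10 genes below are thus not by themselves a result about these genes. In KO against WT, where 1 gene was called, DESeq2, no filter on low counts and a fit of only the libraries compared each called 3, and upper quartile scaling, the trend removal and the study's criteria each called 0. Leaving out a library gave 0 to 4. The median log2 fold change was 0.136 with upper quartile scaling, 0.176 with the trend removed, and 0.11 to 0.221 without a library. With NAC, where 9 were called, leaving out a library gave 6 to 10 calls and medians of -0.513 to -0.267, and the trend removal a median of -0.312. At 5% O2, where 2 were called, the trend removal left 1, and leaving out a library gave 0 to 3 calls and medians of -0.15 to -0.103. For NAC against 5% O2, where 4 were called, leaving out a library gave 2 to 6 calls and medians of -0.314 to -0.136. The study's criteria called 0 in these 3 comparisons. Some values that did not pass the test changed sign: SPRY1 at 5% O2 without 5% O2 replicate 1 (0.0108; range without a library -0.133 to 0.0108), SPRY2 at 5% O2 without KO replicate 2 (0.00236; -0.116 to 0.00236), DUSP4 for NAC against 5% O2 with the trend removed (0.176) and without NAC replicate 2 (0.0268; -0.108 to 0.0268), and SPRED1 in the same comparison with the trend removed (-0.194) and without 5% O2 replicate 2 (-0.0463; -0.0463 to 0.175). Of 640 values of single genes under alternatives, 566 kept direction and side of the threshold, 43 lost a call, 25 gained one and 6 changed sign; where no value is given for the reason, the cause was not tested. With the trend removed, the split of all called genes into higher and lower moved from 213 and 99 to 94 and 97 in KO against WT, and from 586 and 657 to 288 and 54 at 5% O2. With the replicate number as a block, the calls were 1, 9, 2 and 4 in the 4 comparisons and the medians 0.164, -0.406, -0.115 and -0.273, against 1, 9, 2 and 4 calls without it; the replicates share only a number.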
